A study of Mus musculus with 3 samples.

Results

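Expression of 10 genes of eicosanoid synthesis and lipid mediator sensing was measured in mouse blood monocytes. The genes were taken by name, as 10 of the 55536 genes listed in the gene tables, and all 10 were found there. Alox5, Alox5ap, Lta4h and Ltc4s belong to leukotriene synthesis, Ptgs1 and Ptgs2 are the cyclooxygenases, and Ptger2, Ptger4, Cysltr1 and Ptafr are receptors. Total RNA was sequenced in 3 libraries of a single group, numbered in the labels as biological replicates 1, 2 and 3. The group is C57BL/6J, with cells from the peripheral blood of adult animals aged 5 to 6 weeks and no mutation or treatment recorded. Each library started from 100 ng of RNA, which was depleted of ribosomal RNA and converted with a ScriptSeq kit. The recorded fragment range was 200 to 594, 200 to 491 and 200 to 1000 bp in libraries 1, 2 and 3. All 3 carry the same donor record and no recorded sex. The spread that p-values here rest on is therefore that between these libraries, some of which may be technical.

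Eicosanoids are short-range signals made from arachidonic acid, a fatty acid that phospholipases free from membranes. Lipoxygenases turn it into leukotrienes and hydroxy acids, while cyclooxygenases turn it into prostaglandin H2, which terminal synthases convert into prostaglandins and thromboxane. Monocytes and macrophages are known sources of leukotriene B4 and prostaglandin E2 and also sense these lipids, and platelet-activating factor, through G protein-coupled receptors.

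Depth was 27.2, 26.5 and 19.9 M expected counts, the estimated reads per gene, in libraries 1, 2 and 3. Levels are given in TPM, transcripts per 1000000, which divides each count by transcript length and scales the table to a fixed total. Genes annotated as small nuclear RNAs held 60.8%, 60.0% and 60.5% of that total and protein-coding genes 10.9%, 9.84% and 10.7%, so 1 TPM in libraries 1, 2 and 3 becomes 9.16, 10.2 and 9.34 TPM when protein-coding genes alone are scaled to that total, called the protein-coding scale below. At a length of 1000 bases, 1 TPM took 112, 121 and 76.0 counts. The 10 monocyte markers, the lysozyme Lyz2 highest at a mean of 1135 TPM, were all above 1 TPM (edgeR quasi-likelihood test, adjusted p under 0.05), with a summed level of 2550, 2148 and 1475 TPM. The list of classical monocytes summed to 68.6, 60.2 and 113 TPM (the lowest mean was 0.03 TPM for Vcan) and that of non-classical ones to 501, 432 and 497 TPM (means from Pou2f2 at 4.87 to Spn at 125 TPM). Library 3 stood apart in the markers of other blood cells. Its summed neutrophil list was 9.62 TPM against 142 and 128, a gap carried mostly by Retnlg, without which the sums were 17.5, 13.7 and 9.62 TPM in libraries 1, 2 and 3. Library 3 summed lower for the basophil, eosinophil and mast cell list, 6.30 TPM against 31.7 and 34.5, and for the erythroid list, 262 TPM against 3534 and 3327. Its natural killer list was 1544 TPM against 637 and 536, and its platelet list 99.3 against 15.3 and 11.5. The defining neutrophil marker Ly6g and the eosinophil marker Epx had 0 counts in all 3 libraries, and the T cell marker Cd3e had 0.08, 0.03 and 0.16 TPM. Summed levels were 2.74, 2.96 and 5.35 TPM for T cells, 35.2, 37.3 and 30.8 TPM for B cells and 4.79, 3.69 and 2.24 TPM for dendritic cells. The natural killer marker Ncr1 had 41.8, 39.8 and 133 TPM, the platelet marker Itga2b 8.64, 4.72 and 14.6 TPM, and the basophil marker Mcpt8 1.04, 3.14 and 0.87 TPM. These are mixed RNA samples, in which fewer cells of a type and less RNA per cell cannot be told apart.

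**Figure D1:**
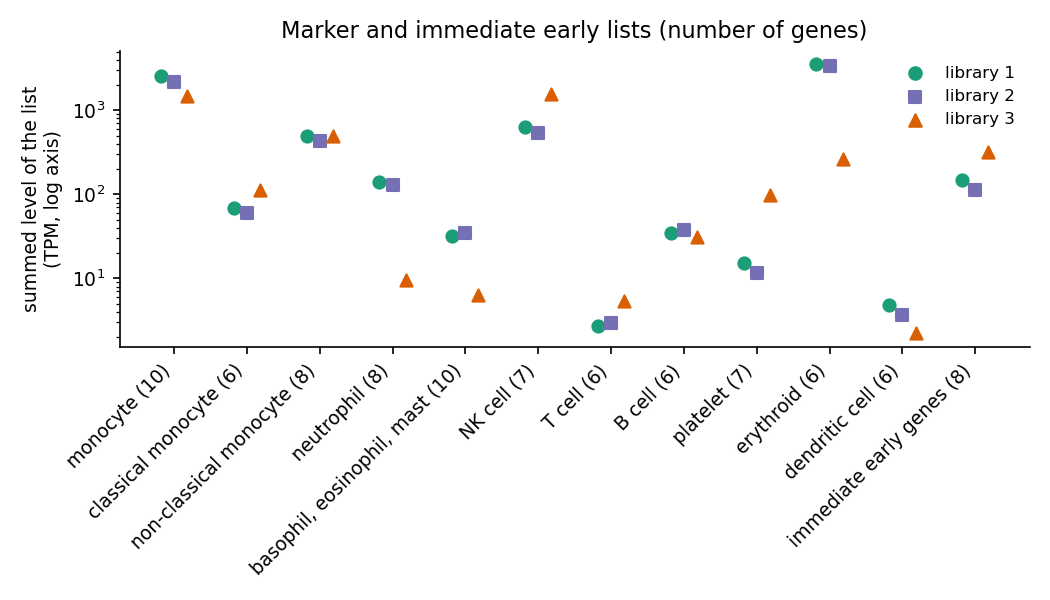
Summed level of each marker list (TPM, log axis) in libraries 1, 2 and 3, with the number of genes per list in parentheses. Library 3 lies below both others for the neutrophil, basophil, eosinophil and mast cell and erythroid lists, and above both for the natural killer and platelet lists.

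Leukotriene synthesis was the most abundant branch, led by the scaffold protein rather than the enzymes. Alox5ap (ENSMUSG00000060063.9, chromosome 5, 149264767 to 149288153, plus strand, mm10) encodes the nuclear membrane protein that presents arachidonic acid to 5-lipoxygenase. It had 110.3, 101 and 45.4 TPM in libraries 1, 2 and 3, from 5665, 6126 and 1684 counts, with a mean of 85.6 TPM ± 35.2 (SD, n = 3). Libraries 1 and 2 lay close together and library 3 lay lowest. The fitted level was 6.41 ± 0.25 (SE) above 1 TPM on the log2 scale (edgeR quasi-likelihood test, two-sided, adjusted p = 1.27e-12). With the older GENCODE M4 annotation in place of M21, the deposited levels were 65.4, 63.1 and 28.9 TPM, so the M21 mean is 1.63 times the M4 mean. Of its M21 level, the full-length coding transcript Alox5ap-201 held 20.3%, 24.3% and 25.9%. The coding model Alox5ap-202, 452 bases long, held 45.1%, 47.8% and 43.9%, and the processed transcript Alox5ap-204 held 34.5%, 27.9% and 30.2%. Short models therefore made up most of the gene's TPM in each library, in nearly the same mix.

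Lta4h (ENSMUSG00000015889.8, chromosome 10, 93453411 to 93484875, plus strand) encodes the hydrolase that makes leukotriene B4, a chemoattractant, from leukotriene A4. It had 20.4, 18.2 and 22.1 TPM, a mean of 20.2 TPM ± 1.94 (SD, n = 3), from 2978, 3271 and 2365 counts. Its libraries lay within a narrow band, with library 3 highest. On the log2 scale the fit placed it 4.34 ± 0.19 (SE) above 1 TPM (edgeR adjusted p = 5.15e-11). Under M4 its levels were 12.4, 12.8 and 14.8 TPM. The single coding transcript Lta4h-201 held 59.3%, 69.4% and 64.9% of the M21 level, and retained-intron and processed models held the rest.

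Ltc4s (ENSMUSG00000020377.15, chromosome 11, 50236461 to 50238616, minus strand) encodes the synthase that joins leukotriene A4 to glutathione and so opens the cysteinyl leukotriene branch. It had 0, 0 and 2 counts, or 0, 0 and 0.09 TPM, and was the 1 member that did not reach the summed count of 10 needed for the test. A count of 0 allows up to 3 counts, which is 0.0618 TPM in library 1 and 0.0554 TPM in library 2. This limit, and the interval below, cover counting error only. Ltc4s shares 268 exonic bases with Gm26542, an antisense gene that had 14, 12 and 2 counts. Whether counting used the strand is not known from the sources used here, so reads of both genes cannot be told apart where they overlap. The separate table that the authors derived directly from the reads gave Ltc4s 34, 18 and 2 estimated counts.

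Both genes draw on leukotriene A4, and Lta4h exceeded Ltc4s in 3 of 3 libraries. The difference of log2(TPM + 0.1) was 7.68, 7.51 and 6.87, a mean of 7.35 ± 0.43 (SD, n = 3). With 3 libraries, the smallest p of an exact two-sided sign-flip test is 0.25, which all 5 gene pairs compared here reached, before and after Benjamini-Hochberg adjustment over the 5. In library 3, where Ltc4s had counts, the ratio was 245, with an exact Poisson 95% interval of the 2 Ltc4s counts that gives 68.2 to 2035. On the reads-based table the mean difference was 6.23 ± 1.16 (SD, n = 3) on the log2 scale, and the ratios were 45.3, 68.0 and 332. The order of both genes was the same in both tables, but the size of the gap was not.

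The start regions of both genes are shown because this pair had the widest gap in level of the 5 compared. Each runs from 250 bases before to 30 bases after the RefSeq start (GRCm38.p6), read on the gene's strand: chr10:93453146-93453425 (plus) for Lta4h and chr11:50238503-50238782 (minus) for Ltc4s. RefSeq start windows were found for 8 of the 10 members. Capitals mark GAGGAA, a core bound by ETS factors of the PU.1 type, on either strand (TTCCTC on the other).
Lta4h: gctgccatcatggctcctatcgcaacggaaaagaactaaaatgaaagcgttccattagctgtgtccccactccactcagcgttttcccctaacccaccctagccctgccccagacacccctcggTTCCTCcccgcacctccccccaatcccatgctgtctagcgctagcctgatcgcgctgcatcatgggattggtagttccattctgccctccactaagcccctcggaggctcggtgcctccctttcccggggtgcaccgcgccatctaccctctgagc
Ltc4s: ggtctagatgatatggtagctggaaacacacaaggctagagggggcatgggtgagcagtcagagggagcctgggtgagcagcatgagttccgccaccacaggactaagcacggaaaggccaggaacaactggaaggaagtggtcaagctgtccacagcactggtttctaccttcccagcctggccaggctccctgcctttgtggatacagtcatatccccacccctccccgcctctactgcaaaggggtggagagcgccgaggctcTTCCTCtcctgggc
Both windows hold 1 such match, 126 to 121 bases before the start in Lta4h and 16 to 21 bases after it in Ltc4s. Of 32851 RefSeq windows of this length, 26% hold GAGGAA on either strand. GC content was 60% and 58.9%. Neither window holds the other motifs searched on both strands, which are named with their letters beside the cyclooxygenase windows.

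Alox5 (ENSMUSG00000025701.12, chromosome 6, 116410077 to 116461178, minus strand) encodes 5-lipoxygenase, the enzyme that begins leukotriene synthesis. It had 9.74, 7.21 and 4.46 TPM, a mean of 7.14 TPM ± 2.64 (SD, n = 3), from 2336, 2101 and 739 counts. Library 1 was highest and library 3 lowest. The fitted level was 2.83 ± 0.24 (SE) above 1 TPM on the log2 scale (edgeR adjusted p = 1.04e-07). The coding transcript Alox5-201 held 65.4%, 72.1% and 60.0% of it and retained-intron models nearly all the rest. A further coding model, Alox5-207, was listed at 0 in this table but at 3.22, 2.16 and 1.78 TPM in the reads-based one. The processed transcript Alox5-203 had 0, 0 and 0.09 TPM here but 1.205, 4.261 and 4.168 TPM there. Alox5-201 held 61.0%, 49.8% and 32.7% in the reads-based table. Alox5ap exceeded its partner Alox5 by 3.49, 3.79 and 3.32 on the log2(TPM + 0.1) scale, a mean of 3.53 ± 0.24 (SD, n = 3), or 11.6-fold. This was the most even of the 5 differences across libraries, and 3 of 3 had the same sign. Under M4 the mean difference was 2.83 ± 0.25 (SD, n = 3).

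**Figure D2:**
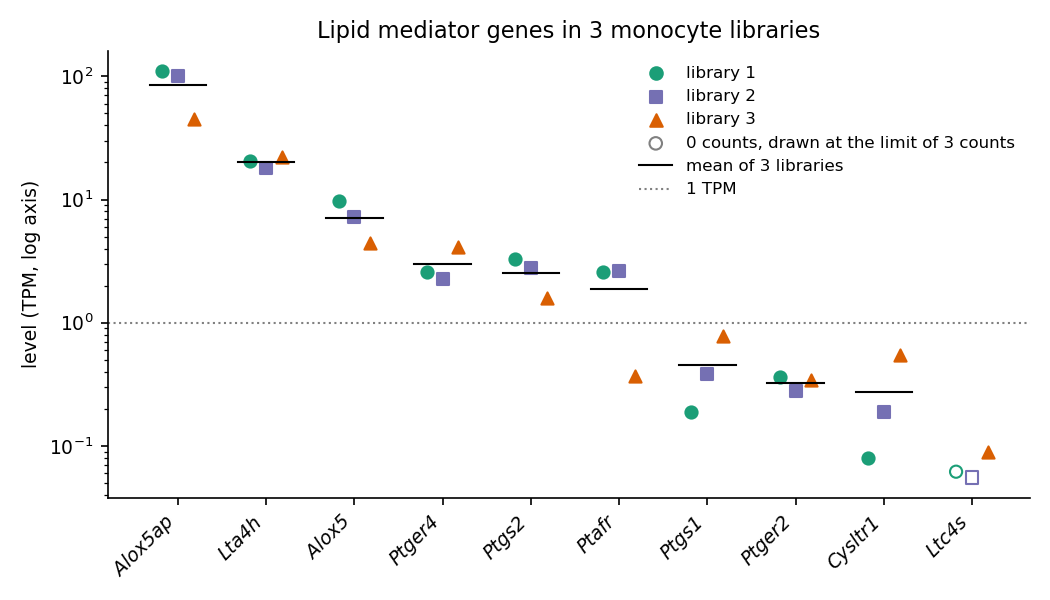
Level of each member (TPM, log axis) in libraries 1, 2 and 3, ordered by mean, with a black bar at the mean of 3 libraries where all had counts and open symbols at the limit of 3 counts where a library had none. Alox5ap, Lta4h and Alox5 take the first places in each library, and the library 3 triangle for Ptafr lies far below its other points.

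The cyclooxygenase branch was much lower, and its inducible member was the more abundant. Ptgs2 (ENSMUSG00000032487.8, chromosome 1, 150100031 to 150108227, plus strand) encodes cyclooxygenase-2, which inflammatory stimuli switch on. It had 3.26, 2.78 and 1.59 TPM, a mean of 2.54 TPM ± 0.86 (SD, n = 3), from 1569, 1449 and 517 counts. Every library was above 1 TPM, and library 3 was lowest. Its fitted level was 1.35 ± 0.24 (SE) above 1 TPM on the log2 scale (edgeR adjusted p = 0.000253), but DESeq2 did not make that call (adjusted p = 0.189). All of its M21 level was assigned to the full-length coding transcript Ptgs2-201. In the reads-based table the coding model Ptgs2-202, 358 bases long, held 39.5%, 0% and 15.8%.

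Ptgs1 (ENSMUSG00000047250.13, chromosome 2, 36230426 to 36252272, plus strand) encodes cyclooxygenase-1, the constitutive form that platelets also use. It had 0.19, 0.38 and 0.78 TPM from 11, 79 and 145 counts, a mean of 0.45 TPM ± 0.301 (SD, n = 3). Library 3 was highest and library 1 lowest. In the reads-based table the gene had 2.05, 0.596 and 1.63 TPM, so there library 1 was highest and library 2 lowest. The fitted level, -1.13 ± 0.52 (SE) against 1 TPM on the log2 scale, passed the test in neither direction (edgeR adjusted p = 0.143). The transcripts behind these values differed between libraries. In library 1 all 11 counts were assigned to Ptgs1-202, a retained-intron model of 697 bases. In library 2 the processed transcript Ptgs1-204 held 69 counts and the retained-intron model Ptgs1-205 held 10. The coding transcript Ptgs1-201 had 0 and 0 counts in libraries 1 and 2 and 129 in library 3, where it made up 80.8% of the gene's TPM. In the reads-based table it had 18, 0 and 185 estimated counts, so nearly all coding reads of Ptgs1 came from library 3 in both tables. Library 3 was also highest for 7 of 7 platelet markers, such as Ppbp with 2.17, 2.47 and 33.7 TPM. The part of platelet RNA in the Ptgs1 level was not tested.

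Ptgs2 exceeded Ptgs1 in 3 of 3 libraries. The difference of Ptgs1 minus Ptgs2 in log2(TPM + 0.1) was -3.53, -2.58 and -0.94, a mean of -2.35 ± 1.31 (SD, n = 3), or 5.11-fold. It was narrowest in library 3, where Ptgs2 was lowest and Ptgs1, in the M21 gene table though not in the reads-based one, was highest. From coding transcripts alone, an alternative chosen after seeing the data, the mean was -3.71 ± 2.17 (SD, n = 3). Alox5 exceeded Ptgs1, the first enzyme of the other constitutive arm, by 5.08, 3.93 and 2.37, a mean of 3.80 ± 1.36 (SD, n = 3), or 13.9-fold. The exact sign-flip p-value was 0.25 for each.

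The start regions of both cyclooxygenase genes are shown because the forms are known for opposite modes of control. They cover chr2:36230176-36230455 (plus) for Ptgs1 and chr1:150099781-150100060 (plus) for Ptgs2, cut and searched as above. Capitals mark GAGGAA, the GC box GGGCGG, the palindrome TTGCGCAA of the type bound by C/EBP factors, ACGTCA, the core of the cAMP response element, and the E-box CACGTG.
Ptgs1: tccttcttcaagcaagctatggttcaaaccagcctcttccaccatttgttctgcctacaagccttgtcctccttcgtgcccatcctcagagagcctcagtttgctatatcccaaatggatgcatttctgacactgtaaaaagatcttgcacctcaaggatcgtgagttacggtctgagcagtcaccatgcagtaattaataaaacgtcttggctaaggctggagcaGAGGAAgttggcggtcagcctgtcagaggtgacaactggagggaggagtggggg
Ptgs2: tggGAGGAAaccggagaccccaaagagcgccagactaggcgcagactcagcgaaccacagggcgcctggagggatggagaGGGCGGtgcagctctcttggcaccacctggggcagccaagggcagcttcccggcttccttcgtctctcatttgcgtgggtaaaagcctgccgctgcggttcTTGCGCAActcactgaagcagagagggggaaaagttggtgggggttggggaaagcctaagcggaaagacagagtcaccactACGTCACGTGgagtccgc
The Ptgs1 window holds GAGGAA at 24 to 19 bases before the start and no other motif searched, with a GC content of 49.6%. The Ptgs2 window holds 5 of the 6 motifs, TATAAA being the exception, with a GC content of 61.4%. GAGGAA lies 247 to 242 bases before the start, GGGCGG 170 to 165 before, and TTGCGCAA 69 to 62 before. ACGTCA lies 12 to 17 bases after the start and overlaps CACGTG, 16 to 21 bases after it. TTGCGCAA occurs in 0.18% of the 32851 windows, CACGTG in 6.79%, ACGTCA in 7.26%, TATAAA in 13.1% and GGGCGG in 34.7%. A match describes letters in this window and is not evidence of binding.

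**Figure D3:**
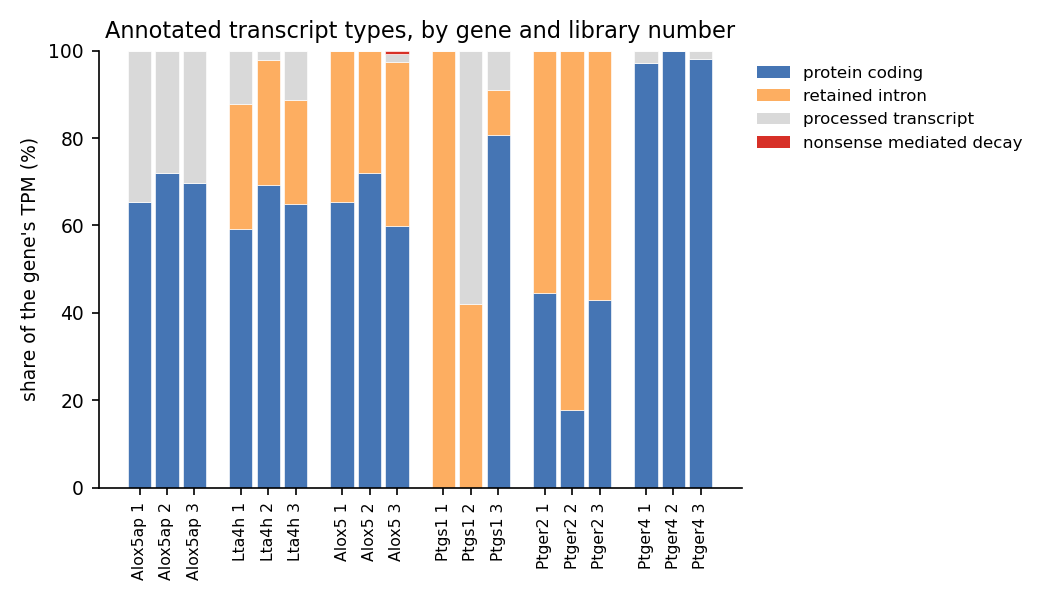
Share of each gene's TPM (%, stacked to 100) by annotated transcript type, for 6 members with part of their level on noncoding models and for libraries 1, 2 and 3. Ptgs1 has no coding share in libraries 1 and 2 and 80.8% in library 3, while Ptger4 is nearly all coding in each.

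Among the receptors, Ptger4 was the most abundant. Ptger4 (ENSMUSG00000039942.15, chromosome 15, 5206661 to 5244187, minus strand) encodes the prostaglandin E2 receptor EP4, which signals through Gs and cyclic AMP. It had 2.57, 2.26 and 4.15 TPM from 901, 861 and 980 counts, a mean of 2.99 TPM ± 1.01 (SD, n = 3). Library 3 was highest. The fitted level was 1.58 ± 0.24 (SE) above 1 TPM on the log2 scale (edgeR adjusted p = 5.12e-05), a call that DESeq2 did not make (adjusted p = 0.0826). Coding transcripts held 97.3%, 100% and 98.1% of it. The gene shares 1015 exonic bases with the pseudogene Gm15937 on the opposite strand, which had 58, 58 and 20 counts, and 82 with Ttc33, which had 834, 364 and 479.

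Ptger2 (ENSMUSG00000037759.6, chromosome 14, 44988195 to 45003820, plus strand) encodes EP2, the other Gs-coupled prostaglandin E2 receptor. It had 0.36, 0.28 and 0.34 TPM from 120, 90 and 76 counts, a mean of 0.327 TPM ± 0.0416 (SD, n = 3). The libraries barely differed. The fitted level was -1.61 ± 0.43 (SE) on the log2 scale, below 1 TPM (edgeR adjusted p = 0.0335), but 1.63 above the level of 1 TPM on the protein-coding scale (edgeR adjusted p = 0.00162). DESeq2 did not make the call below 1 TPM (adjusted p = 0.506), and it was lost without library 1 (edgeR adjusted p = 0.119) and without library 2 (edgeR adjusted p = 0.113). The coding transcript Ptger2-201 held 44.4%, 17.9% and 42.9% of the level, or 0.16, 0.05 and 0.15 TPM, and the retained-intron model Ptger2-202 held the rest. With M4 the gene had 0.19, 0.05 and 0.19 TPM, and the M21 mean is 2.28 times the M4 mean. Its exons overlap 246 bases of Gm17173 and 144 bases of Gm49364 on the opposite strand, which had 49, 20 and 32 and 0, 31 and 48.0 counts.

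Ptger4 exceeded Ptger2 by 2.54, 2.63 and 3.27 on the log2(TPM + 0.1) scale, a mean of 2.81 ± 0.40 (SD, n = 3), or 7.03-fold, in 3 of 3 libraries (exact sign-flip p = 0.25). From coding transcripts alone the mean was 3.79 ± 0.41 (SD, n = 3), and under M4 it was 3.70 ± 0.43 (SD, n = 3).

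Cysltr1 (ENSMUSG00000052821.3, chromosome X, 106574346 to 106603679, minus strand) encodes the high-affinity receptor for leukotriene D4. It had 0.08, 0.19 and 0.55 TPM from 47, 104 and 69 counts, a mean of 0.273 TPM ± 0.246 (SD, n = 3). Its TPM and its counts did not order the libraries alike. Between libraries 3 and 1 the TPM ratio was 6.88, whereas the ratio of counts, each scaled to its library's total, was 2.00. The 2 coding transcripts differ in length: Cysltr1-202 has 5142 bases and Cysltr1-201 has 1059. The short model held 0%, 10.5% and 81.8% of the level, from 0, 1.77 and 29.7 counts, so the same reads weighed more in library 3. Against 1 TPM the fit gave -1.89 ± 0.60 (SE) on the log2 scale, past the threshold in neither direction (edgeR adjusted p = 0.0555). Without library 3 it was -2.89 and below (edgeR adjusted p = 0.00537), and on the protein-coding scale it was 1.36 above (edgeR adjusted p = 0.0398).

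Ptafr (ENSMUSG00000056529.7, chromosome 4, 132564067 to 132582683, plus strand) encodes the receptor for platelet-activating factor. It had 2.60, 2.64 and 0.37 TPM from 1013, 1113 and 98 counts, a mean of 1.87 TPM ± 1.30 (SD, n = 3). Libraries 1 and 2 were nearly equal and library 3 was far lower. The bounds that the deposited gene table gives for each TPM were 2.40 to 2.72, 2.46 to 2.76 and 0.298 to 0.444, and those of library 3 do not overlap the others. The sources used here do not say which confidence those bounds stand for. Against 1 TPM the fit gave 0.91 ± 0.43 (SE) on the log2 scale, past the threshold in neither direction (edgeR adjusted p = 0.0795). Without library 3 it was 1.39 and above (edgeR adjusted p = 6.46e-06). A single annotated transcript carries the gene, so no choice between models enters its value.

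Of the 10 members, 9 were tested. Above 1 TPM by edgeR were 5 (Alox5ap, Lta4h, Alox5, Ptger4 and Ptgs2). By the same test 43.0% of the 17678 genes tested and 53.7% of the 12996 protein-coding ones were above. Below 1 TPM was 1 (Ptger2), against 5.96% of the genes tested and 5.64% of the protein-coding ones, and the other 3 were on neither side. The share above is near the background, so the members as a list were about as often above 1 TPM as protein-coding genes in general. Their median level was 2.21 TPM over all 10 and 2.54 TPM over the 9 tested. It was 2.09 TPM over the protein-coding genes tested and 1.18 TPM over all genes tested. DESeq2 put 3 of the 9 above 1 TPM. On the protein-coding scale, which raises every level, all 9 were above 1 TPM. Shares over all genes are not given here for DESeq2 or that scale, so neither count is set against a background.

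By mean TPM the order was Alox5ap, Lta4h, Alox5, Ptger4, Ptgs2, Ptafr, Ptgs1, Ptger2, Cysltr1 and Ltc4s. Of the 9 neighbouring pairs, 5 kept their order in all 3 libraries in the M21 gene table. Alox5ap led Lta4h by 1.98 ± 0.82 (SD, n = 3) and Lta4h led Alox5 by 1.56 ± 0.64 on the log2(TPM + 0.1) scale. Alox5 led Ptger4 by 1.88, 1.63 and 0.10, so that these lay almost level in library 3. Ptgs2 led Ptafr by 0.32, 0.07 and 1.85, a mean of 0.74 ± 0.96 (SD, n = 3) that is within the spread, and Cysltr1 led Ltc4s by 0.85, 1.54 and 1.77. Neither of these pairs kept its order in the reads-based table. There Ptgs2 was below Ptafr in library 2, with 3.97 against 4.02 TPM. Ltc4s had 0.88, 0.45 and 0.13 TPM there against 0.19, 0.38 and 0.91 for Cysltr1, and so was higher in libraries 1 and 2. The pairs that did not keep their order in the M21 gene table were Ptger4 and Ptgs2, Ptafr and Ptgs1, Ptgs1 and Ptger2, and Ptger2 and Cysltr1. Their mean differences were smaller than the spread between libraries, for example 0.24 ± 0.95 (SD, n = 3) for Ptger4 against Ptgs2.

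The members did not move together between libraries. As reference served the median of protein-coding genes with a mean of at least 1 TPM, which itself shifted by -0.16 from library 1 to 2, 0.21 from 1 to 3 and 0.37 from 2 to 3 (log2). With 1 library on each side, these are descriptions without a test. Of the 6 members with a mean of at least 1 TPM, none differed over 2-fold between libraries 2 and 1, where 4.38% of 9370 such genes were lower and 4.80% higher. In library 3, 4 of the 6 were over 2-fold lower than in library 1, against 7.18% of the 9370 genes, and the same 4 were lower than in library 2, against 7.60%. None of the 6 was over 2-fold higher in library 3, against 8.35% of genes over library 1 and 8.54% over library 2. Both comparisons share library 3.

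Ptafr had the widest difference, -2.73 against library 1 and -2.91 against library 2 (log2, relative to the median gene). Alox5ap differed by -1.49 and -1.53, Alox5 by -1.32 and -1.05, and Ptgs2 by -1.20 and -1.14. Lta4h, which shares a pathway with Alox5 and Alox5ap, differed by -0.10 and -0.09, and Ptger4 by 0.46 and 0.48. The same 4 members were over 2-fold lower in counts scaled to a library's total, a measure free of transcript length that was added after the data were seen. In that measure Ptafr in library 3 stood at 0.132 of library 1 and 0.117 of library 2, and Alox5ap at 0.405 and 0.366. With a pseudocount of 1 in place of 0.1, 3 members passed 2-fold against library 1 and 2 against library 2, Alox5ap and Ptafr being in both. Beside this, library 3 was lowest for 5 of 8 neutrophil markers, such as Retnlg with 124, 114 and 0 TPM, though Csf3r, with 5.99, 6.64 and 8.09 TPM, was highest there and Ly6g and Camp had 0 counts throughout. It was lowest for 9 of 10 basophil, eosinophil and mast cell markers, such as Ccr3 with 12.4, 11.6 and 0.17 TPM. It was also lowest for 6 of 10 monocyte markers, including Lyz2 with 1448, 1238 and 718 TPM. For 3 of the 10 it was highest, such as Csf1r with 69.8, 52.4 and 86.6 TPM. Of the natural killer markers, 7 of 7 were highest in library 3, such as Gzma with 484, 379 and 1014 TPM. The part of these cell types, and of the wider fragment range of library 3, in the members' differences was not tested. Of the immediate early genes, the rapid response genes that stimulation switches on, 8 of 8 were highest in library 3, where Ptgs2 was lowest. Their summed level was 150, 114 and 316 TPM in libraries 1, 2 and 3. Their relation to the level of Ptgs2 was not tested.

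**Figure D4:**
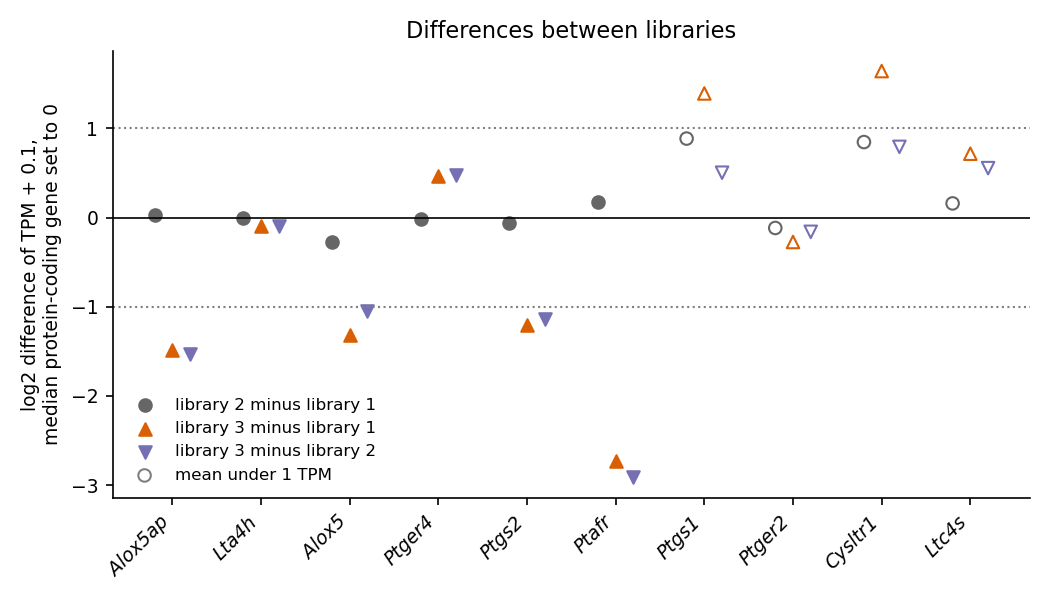
Difference between libraries in log2(TPM + 0.1) for each member, with the median protein-coding gene set to 0, dotted lines at 2-fold and open symbols for members with a mean under 1 TPM. Ptafr, Alox5ap, Alox5 and Ptgs2 lie below the lower line in both comparisons of library 3, while Lta4h stays within 0.10 of 0.

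Around the members, 56 other genes of lipid mediator handling were followed. Of these 43 were tested, 18 were above 1 TPM, 4 below and 21 on neither side, and 12 had 0 counts in every library. DESeq2 put 13 above and 0 below, and the calls above that it did not make were those of Pla2g4a (adjusted p = 0.218), Lpcat3 (0.259), Alox15 (0.267), Abcc1 (0.364) and Ltb4r1 (0.393). By edgeR, 43.0% of all 17678 genes tested were above 1 TPM and 5.96% below, and of the protein-coding ones 53.7% and 5.64%. The share of the 43 above was near that of all genes tested and under that of protein-coding ones. These shares are also the background of the counts by role below. The median level was 0.55 TPM over the 56 genes and 1.23 TPM over the 43 tested. The highest means were those of Hpgd, Pla2g7 and Cyp4f18. Hpgd, the dehydrogenase that begins prostaglandin breakdown, had 47.9, 34.5 and 25.0 TPM, a mean of 35.8 TPM ± 11.5 (SD, n = 3), the highest of the 56 genes (edgeR adjusted p = 1.04e-11). Pla2g7, which degrades platelet-activating factor, had 36.3, 27.0 and 15.2 TPM. Cyp4f18, a cytochrome P450 that oxidises leukotriene B4, had 27.3, 25.6 and 15.7 TPM. By mean level each exceeded all 10 members except Alox5ap.

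For release and remodelling of membrane lipids, 6 of 13 genes were above 1 TPM and 0 below by edgeR (2 below at an unadjusted p under 0.05, 0 with DESeq2, 3 with limma). Pla2g4a, the cytosolic phospholipase that frees arachidonic acid, had 3.20, 2.43 and 1.70 TPM (edgeR adjusted p = 0.000677), a call DESeq2 did not make. Lpcat2, an acyltransferase that can make platelet-activating factor, had 10.3, 9.03 and 6.04 TPM. Acsl4, which couples arachidonic acid to coenzyme A, had 4.95, 4.61 and 5.51 TPM, and Mboat7, which returns it to phosphatidylinositol, had 3.86, 3.41 and 2.75 TPM. Lpcat3 had 2.18, 1.74 and 3.05 TPM. Lpcat1, with 1.40, 0.99 and 1.30 TPM, was on neither side. The secreted phospholipases Pla2g2d and Pla2g5 had 0 counts in all 3 libraries.

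Of the other lipoxygenases, Alox15 and Alox12 differed between libraries more than any member did. Alox15, the 12/15-lipoxygenase, had 4.35, 4.05 and 0.16 TPM from 1091, 1104 and 27 counts, far lower in library 3. It was above 1 TPM (edgeR adjusted p = 0.0264), but not without library 1 or without library 2. Alox12, the platelet-type 12-lipoxygenase, had 0.17, 0.08 and 2.69 TPM from 53, 26 and 559 counts, high in library 3 alone (edgeR adjusted p = 0.964). Relative to the median gene, library 3 stood at -4.31 and -4.37 for Alox15 and at 3.16 and 3.58 for Alox12 (log2, against libraries 1 and 2). The eosinophil chemokine receptor Ccr3 was likewise lowest in library 3 and the platelet gene Ppbp likewise highest there, and the part of those cells was not tested. Alox8, with 0.16, 0.22 and 0.14 TPM, was the gene of this group below 1 TPM, and Alox12b had 0 counts.

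Of 9 terminal synthases, 7 were tested and 1 was above 1 TPM. That was Ptges3, a co-chaperone also described as a prostaglandin E synthase, with 16.8, 13.5 and 12.5 TPM. Tbxas1, thromboxane synthase, had 2.02, 1.70 and 1.1 TPM (edgeR adjusted p = 0.0843), and Mgst2, a glutathione transferase able to make leukotriene C4, had 0.70, 1.21 and 1.25 TPM (edgeR adjusted p = 0.916). The prostaglandin D synthase Ptgds and the prostacyclin synthase Ptgis had 0 counts. Hpgds, with 0.07, 0.14 and 0.24 TPM, was the 1 synthase below 1 TPM and is named after its values were seen.

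Of 13 genes of inactivation and export, 5 were above 1 TPM and 2 below. Besides Hpgd and Cyp4f18 the former were the dipeptidase Dpep2, which trims leukotriene D4, with 6.72, 7.72 and 4.20 TPM, the prostaglandin reductase Ptgr2 with 5.32, 6.04 and 5.84 TPM, and the exporter Abcc1 with 2.52, 1.43 and 2.29 TPM. The exporter Abcc4 (1.16, 1.34 and 1.54 TPM) and the carbonyl reductase Cbr1 (1.43, 0.61 and 1.26 TPM) were on neither side. Below were Ptgr1 and Ggt5, named after their values were seen, with means of 0.23 and 0.183 TPM. Dpep1, Ephx2 and the prostaglandin transporter Slco2a1 had 0 counts.

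Of the 16 other receptors, 5 were above 1 TPM and 0 below by edgeR (1 below at an unadjusted p under 0.05, 0 with DESeq2, 2 with limma). Gpr132, a receptor for oxidised fatty acids, had 7.85, 9.33 and 6.33 TPM and exceeded each of the receptors among the members. Fpr2, which binds formyl peptides and lipoxin A4, had 5.58, 3.88 and 3.00 TPM. Cmklr1, a receptor for chemerin, had 2.12, 1.48 and 8.73 TPM, highest in library 3. Ltb4r1, the high-affinity leukotriene B4 receptor, had 2.83, 1.76 and 1.49 TPM (edgeR adjusted p = 0.0137), a call lost without library 1. Cysltr2, the other cysteinyl leukotriene receptor, had 2.10, 2.76 and 5.62 TPM (edgeR adjusted p = 0.000321), 3.82 times its M4 mean, and with M4 (0.49, 0.75 and 1.50 TPM) it was not above 1 TPM. The prostacyclin receptor Ptgir (1.62, 0.92 and 1.44 TPM) and Fpr1 (1.06, 1.06 and 1.01 TPM) were on neither side. Ptgdr, Ptgfr, Oxgr1 and Gpr17 had 0 counts in all libraries.

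Of the 25 pathway genes with a mean of at least 1 TPM, 7 were over 2-fold lower in library 3 than in library 1. Of all 9370 genes at that level, 7.18% were. Against library 2, 4 of the 25 were over 2-fold lower, beside 7.60% of the 9370. Pla2g7 and Alox15 were in both. Over 2-fold higher were Cysltr2 and Cmklr1 against library 1, beside 8.35% of the 9370 genes, and Cmklr1 against library 2, beside 8.54%. None of the 25 passed 2-fold between libraries 2 and 1, where 4.38% of the 9370 genes were lower and 4.80% higher.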

How the data were processed

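Total RNA-seq of monocytes was analysed from 3 libraries of 1 group. The authors made gene and transcript tables on mm10 from transcriptome alignments, with GENCODE M21 and with M4, and an M21 transcript table from the reads, as the notes deposited with each library state. The sources used here do not name the programs or the strand setting. The deposited tables give an expected count and TPM per gene, the percent of a gene's TPM per transcript and, as a signal, bounds of each TPM. M21 gene tables were the main source; 55450 of 55536 genes had a symbol.

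Counts, rounded, were fitted with edgeR 4.0.16 (quasi-likelihood, intercept only, R 4.3.3), with offsets that set each gene against 1 TPM. F was computed from the deviances, since the tool takes no single-column design. Testing required a summed count of at least 10 (Benjamini-Hochberg, threshold 0.05). The fit was tried on simulated data that varied less between libraries than these do, so that trial does not show how reliable the calls here are. DESeq2 1.42.0 and limma 3.58.1 were alternatives. Gene pairs used log2(TPM + 0.1) and an exact sign-flip test. Members and lists were chosen with earlier results of these data known. All members are named. Of the pathway list, the 3 highest per role, genes with a mean of at least 1 TPM and genes with 0 counts in all libraries are named. Of marker lists, the highest, lowest and defining genes are named, and besides these Csf1r and Csf3r. All member counts were whole numbers.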

Additional observations from a re-analysis of the deposited data

How the results depend on the processing

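Against 5 members above 1 TPM, DESeq2 and a level of 2 TPM gave 3 each and the protein-coding scale gave 9. Against 1 below, DESeq2, the protein-coding scale and a level of 0.5 TPM gave 0 (also at an unadjusted p under 0.05), limma, TMM factors, DESeq2 size factors, no filter and M4 gave 2, a level of 2 TPM gave 3, and leaving out 1 library gave 0 to 2, with 0 without library 1 or 2. Against 18 pathway genes above, the protein-coding scale gave 32, a level of 2 TPM 12 and DESeq2 13. Shares over all genes are not given here for the alternative settings, so their counts are not set against a background. Against 4 below, DESeq2, the protein-coding scale and a level of 0.5 TPM gave 0 (0, 0 and 1 at an unadjusted p under 0.05), limma 14, a level of 2 TPM 11, and leaving out 1 library 0 to 4, with 0 without library 1 or 2 (3 each at an unadjusted p under 0.05). On the protein-coding scale 3 members reversed relative to the level: Ptgs1 to 2.10, Ptger2 to 1.63 and Cysltr1 to 1.36 (log2), because that scale raises every level. Members over 2-fold lower in library 3 than in library 2 fell from 4 to 2 with a pseudocount of 1. All 5 gene pairs kept their direction under the other pseudocounts, M4, the reads-based table, coding transcripts alone and each library left out. No paired analysis was possible because the series holds 1 group. In the main tables Ltc4s and the coding transcript of Ptgs1 had 0 counts in libraries 1 and 2. For these libraries the reads-based table gave Ltc4s 34 and 18 counts and Ptgs1-201 18 and 0.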
